A study of Mus musculus with 200 samples.

Results

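Nr4a1, Nr4a2 and Nr4a3 are the 3 genes of the NR4A family of nuclear receptors. They were taken by gene symbol from a bulk RNA sequencing data set of mouse brain that lists 56941 genes, and each symbol matched 1 row. The 200 mice had received a closed-head injury (CHI) or sham surgery, and 1 hemisphere per mouse was collected 9, 24 or 72 h later. In CHI a single impact was given to the exposed, intact skull, and sham mice had the same anaesthesia and scalp incision without the impact. The mice carried 1 of 4 strain labels: C57BL/6J (61 mice), IL-1R1 gKO (55 mice), IL-1R1 eRestore (50 mice) and IL-1R1 nRestore (34 mice). CHI mice numbered 46 at 9 h, 43 at 24 h and 44 at 72 h, and sham mice 22, 22 and 23. At 9 h the groups held 15 CHI and 6 sham C57BL/6J mice, 13 and 6 mice labelled IL-1R1 gKO, 12 and 6 labelled IL-1R1 eRestore and 6 and 4 labelled IL-1R1 nRestore. The alleles behind the 3 IL-1R1 labels, and any promoter or Cre driver, are not given in the sources used here. Mice were 3.3 to 5.17 months old at 9 h, 4.3 to 7.4 months at 24 h and 4.5 to 7.67 months at 72 h. Both sexes were present in every group except the IL-1R1 nRestore groups at 72 h, which were all male.

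NR4A proteins are transcription factors of the nuclear receptor superfamily whose ligand pocket is closed off by bulky side chains, so that their output is set mainly by how much of the protein a cell makes. Their genes are immediate early genes: in neurons, calcium and cyclic AMP signals switch them on within minutes through CREB, which binds the cyclic AMP response element, and the messages decay quickly. Nr4a1 (Nur77) and Nr4a3 (Nor1) follow neuronal activity in the forebrain. Nr4a2 (Nurr1) is in addition expressed steadily in particular cell groups, among them midbrain dopamine neurons and the neurons of the claustrum and deep cortical layers.

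In the GENCODE annotation of GRCm39, Nr4a1 spans chr15:101151980-101172681 on the plus strand, Nr4a2 spans chr2:56996842-57014331 on the minus strand and Nr4a3 spans chr4:48045153-48086447 on the plus strand. All 3 are protein-coding, with 7, 8 and 8 exons in the canonical transcript. Nr4a1 overlaps 3 annotated long non-coding RNA genes and Nr4a3 overlaps 1, and whether the counting used strand is not given in the sources used here, so reads of those genes may be included. Promoter sequences were read from a RefSeq table of GRCm38.p6 and placed in GRCm39 by exact match, with 1 match each. They are shown because all 3 genes were called lower in C57BL/6J mice at 9 h. Capitals mark TGACG, the core of the cyclic AMP response element, or CGTCA, the same letters on the opposite strand. The stretches of Nr4a1 (chr15:101164477-101164656, plus strand) and Nr4a3 (chr4:48045055-48045152, plus strand) lie outside the annotated exons of these genes, the former inside the span of longer Nr4a1 transcripts. The shorter pieces, chr15:101164677-101164701 for Nr4a1, chr2:57014201-57014225 and chr2:57014115-57014144 on the minus strand for Nr4a2 and chr4:48045148-48045172 for Nr4a3, lie wholly or partly in an exon of at least 1 annotated transcript. They show 3 of 4 matches each for Nr4a1 and Nr4a2 and all 4 for Nr4a3.
Nr4a1, distal: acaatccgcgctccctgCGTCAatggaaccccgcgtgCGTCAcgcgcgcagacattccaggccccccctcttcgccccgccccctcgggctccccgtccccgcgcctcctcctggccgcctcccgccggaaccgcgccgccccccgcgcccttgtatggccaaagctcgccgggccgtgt
Nr4a1, proximal: cctctccatgCGTCAcggagcgctt
Nr4a2, distal: gccaggccggCGTCActggcagggc
Nr4a2, proximal: ccgggcTGACGgggccgcTGACGcgcttgg
Nr4a3, distal: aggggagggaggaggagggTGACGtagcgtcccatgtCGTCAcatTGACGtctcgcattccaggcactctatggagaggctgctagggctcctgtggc
Nr4a3, proximal: gtggcataaaTGACGtgccgagaga

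Each of the 3 promoters held 4 matches to TGACG on either strand in the window from 250 bases before to 50 after the start. They lay from 233 to 36 bases before the RefSeq start of Nr4a1, from 200 bases inward for Nr4a2 and from 231 bases inward for Nr4a3, all of them before the start. Of 32851 promoters of the same length in the table, 20.8% held at least 1 match and 0.231% held 4 or more. These shares are not matched for base content. The 250 bases before the start were 74.4% G or C for Nr4a1, 80% for Nr4a2 and 63.6% for Nr4a3. None of the 3 held the full element TGACGTCA (1.79% of all promoters), which contains TGACG, the AP-1 element TGACTCA (5.2%) or the NBRE AAAGGTCA to which NR4A proteins bind (1.51%), on either strand.

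The tables hold estimated counts, which are the reads that Salmon assigned to a gene, and TPM, a share of the library per transcript length. Total counts per mouse ranged from 14857985 to 57355676. The 9 h mice came from 3 experiments that supplied no mouse to the later time points, so that experiment and time point cannot be told apart, and neither can the time of day at collection. Il1r1, the gene for the interleukin-1 receptor to which the labels refer, was not lower where a loss might be read from the name: its median was 3.95 TPM (2.39 to 7.86) in the 55 mice labelled IL-1R1 gKO and 2.01 TPM (0.998 to 4.77) in the 61 C57BL/6J mice. A gene-level sum does not show which part of a transcript is made, so Il1r1 did not check these labels and the 3 IL-1R1 names below are the labels' own. Neuronal markers were abundant in every library at 9 h, with 4680 to 8090 TPM summed over Rbfox3, Snap25, Syt1, Slc17a7, Gad1 and Gad2.

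All 3 genes were detected in all 200 mice. Nr4a1 had the highest levels, with a median of 53.3 TPM (13.2 to 194.2), followed by Nr4a2 with 26.7 TPM (8.5 to 66.8) and Nr4a3 with 9.63 TPM (2.7 to 25.9). Nr4a1 exceeded Nr4a3 in all 200 mice, Nr4a2 exceeded Nr4a3 in all but 2, and Nr4a1 was below Nr4a2 in 31 mice. At least 123 estimated counts lay behind each value. Over the 24 groups of strain, surgery and time point, the median of Nr4a1 varied 6.89-fold, from 17.8 TPM in 9 h CHI mice labelled IL-1R1 nRestore to 123 TPM in 9 h C57BL/6J sham mice. That of Nr4a3 varied 2.8-fold, from 6.27 to 17.6 TPM, and that of Nr4a2 1.81-fold, from 19.4 to 35.3 TPM. For each gene the 9 h C57BL/6J sham mice had the highest median of the 24 groups. With the groups ordered by median, the gap between neighbours was smaller than the larger of their SDs in all 23 neighbouring pairs for Nr4a2 and Nr4a3 and in 22 of 23 for Nr4a1, where the 9 h C57BL/6J sham mice stood apart from the next group, the 72 h CHI mice labelled IL-1R1 gKO (81.4 TPM).

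In C57BL/6J mice at 9 h, all 3 genes were lower after CHI. Nr4a1 ranged from 32.2 to 71.8 TPM in the 15 CHI mice (median 40.3) and from 72.4 to 162.7 TPM in the 6 sham mice (median 123). Nr4a3 ranged from 4.63 to 9.91 TPM in CHI mice (median 7.33) and from 14.3 to 24 TPM in sham mice (median 17.6). Every CHI mouse lay below every sham mouse for both genes, which was true of 0.236% of the 16967 genes tested. The log2 fold change of Nr4a1 was -1.52 ± 0.16 (SE; adjusted p = 5.21e-06), so that the level after CHI was 0.35 times that of sham. The log2 fold change of Nr4a3 was -1.3 ± 0.12 (SE; adjusted p = 1.94e-07), or 0.406 times sham. In this comparison, by edgeR's quasi-likelihood test with Benjamini–Hochberg adjustment over all genes, 14.1% of genes were called at an adjusted p under 0.05, and 7% were called lower. In bulk tissue, fewer cells that express a gene and less RNA per cell cannot be told apart.

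Nr4a2 fell less, and its groups overlapped. It ranged from 8.5 to 36.9 TPM in CHI mice (median 19.4) and from 18.7 to 66.8 TPM in sham mice (median 35.3), and 14 of 15 CHI mice were below the sham median. The log2 fold change was -0.95 ± 0.26 (SE; adjusted p = 0.022, edgeR), or 0.518 times sham. This call rested on single sham mice. Without sham mouse A193 the log2 fold change was -0.73 (adjusted p = 0.107), without A093 it was -0.82 (adjusted p = 0.0844) and without A178 it was -0.87 (adjusted p = 0.0548).

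**Figure D1:**
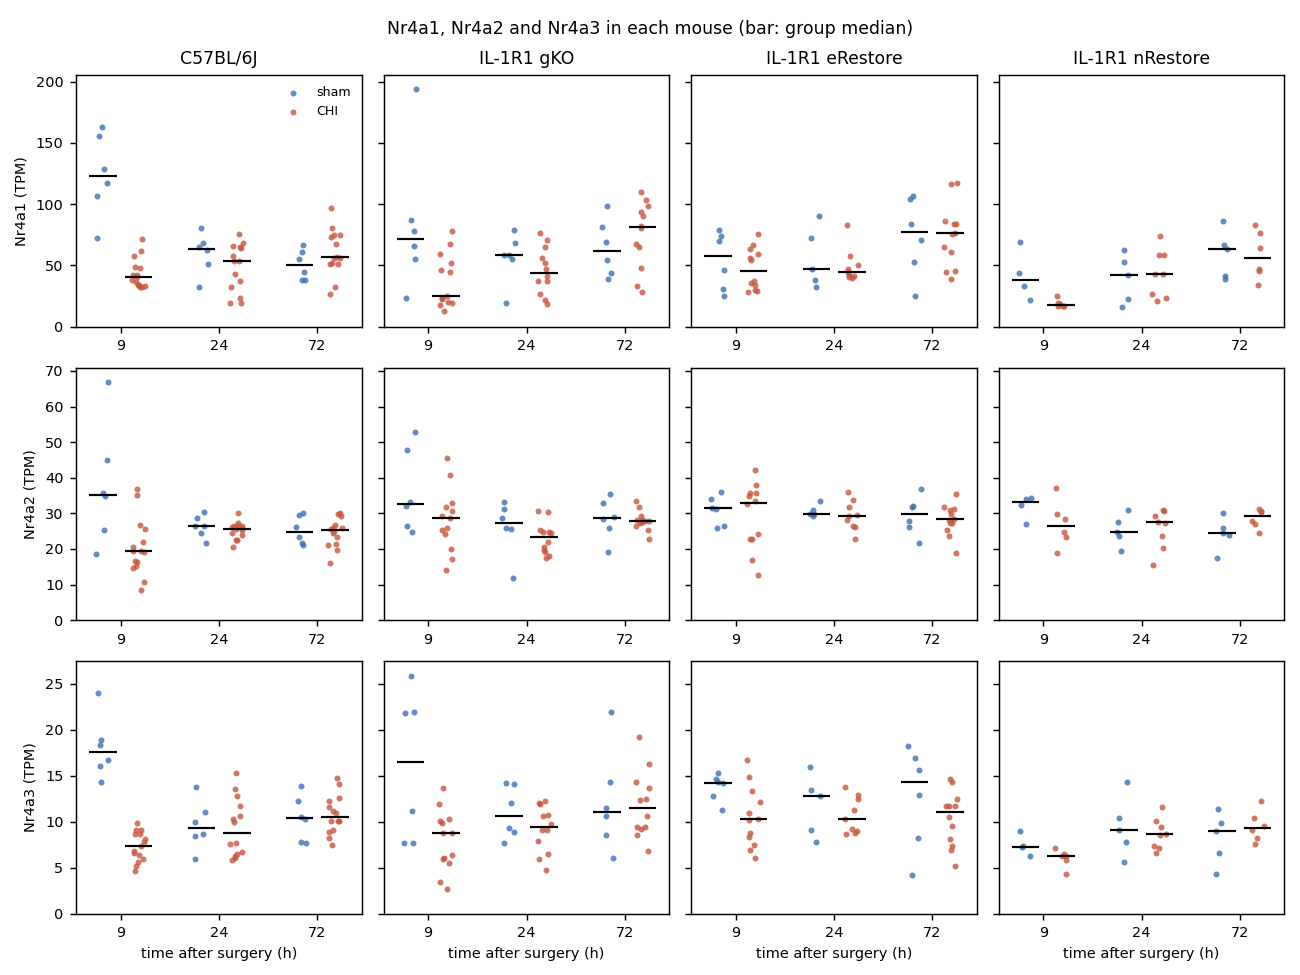
Levels of Nr4a1, Nr4a2 and Nr4a3 in TPM (rows, linear axes from 0) in each of the 200 mice, by strain label (columns), hours after surgery (horizontal axis) and surgery (blue, sham; red, CHI), with a bar at each group median. In C57BL/6J mice at 9 h all 15 CHI mice sit below all 6 sham mice for Nr4a1 and Nr4a3, and the groups overlap in every other panel and time point.

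In mice labelled IL-1R1 gKO at 9 h, all 3 estimates were below 0 and none passed the test, with 0.199% of genes called (edgeR). Nr4a1 ranged from 13.2 to 78.5 TPM in the 13 CHI mice (median 25.1) and from 23.1 to 194.2 TPM in the 6 sham mice (median 71.9), and 12 of 13 CHI mice were below the sham median. Its log2 fold change was -1.19 ± 0.32 (SE; p = 0.00186, adjusted p = 0.146). Nr4a3 ranged from 2.7 to 13.7 TPM in CHI mice (median 8.8) and from 7.63 to 25.9 TPM in sham mice (median 16.5), and 13 of 13 CHI mice were below the sham median. Its log2 fold change was -0.85 ± 0.22 (SE; p = 0.00116, adjusted p = 0.122). Both passed the threshold with DESeq2, at adjusted p = 0.0319 for Nr4a1 and 0.0356 for Nr4a3. In 6 of 10 alternative settings each gene stayed uncalled. The adjusted p there reached 0.564 for Nr4a1 and 0.682 for Nr4a3 (edgeR), and the log2 fold change of Nr4a3 was as small as -0.47. Without sham mouse A090, which had the highest Nr4a1 level, the log2 fold change of Nr4a1 was -0.78 (adjusted p = 0.404). Nr4a2 ranged from 14.1 to 45.4 TPM in CHI mice (median 28.8) and from 24.6 to 52.9 TPM in sham mice (median 32.6), with a log2 fold change of -0.38 ± 0.18 (SE; adjusted p = 0.475). All 3 genes overlapped between the groups, and 0.0118% of genes did not overlap with CHI below sham. Experiment TM-2-33 supplied 6 of the 13 CHI mice and 2 of the 6 sham mice. Its sham mice had the lowest Nr4a3 levels of the sham group (7.63 and 7.71 TPM). The main fit had no term for experiment, so the comparison with the pooled sham median mixes experiment with surgery.

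The mice labelled IL-1R1 eRestore showed little difference in Nr4a1 or Nr4a2 at 9 h. Nr4a1 ranged from 28.3 to 75.9 TPM in the 12 CHI mice (median 45.8) and from 25.4 to 79 TPM in the 6 sham mice (median 57.9), with a log2 fold change of -0.2 ± 0.27 (SE; adjusted p = 0.687). Nr4a2 had medians of 33 TPM after CHI and 31.4 TPM after sham, with a log2 fold change of -0.06 ± 0.21 (SE; adjusted p = 0.877). Nr4a3 ranged from 6 to 16.7 TPM in CHI mice (median 10.3) and from 11.3 to 15.3 TPM in sham mice (median 14.2), and 8 of 12 CHI mice lay below the lowest sham mouse. Its log2 fold change was -0.37 ± 0.18 (SE; p = 0.0505, adjusted p = 0.194). Here 7.34% of genes were called (edgeR), and 0.0472% did not overlap with CHI below sham, with none of the 3 genes among either.

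In mice labelled IL-1R1 nRestore at 9 h, Nr4a1 was 21.4, 32.8, 43.6 and 68.9 TPM in the 4 sham mice and 16.9 to 24.8 TPM in the 6 CHI mice (median 17.8). Of the CHI mice, 5 lay below the lowest sham mouse and the remaining mouse, at 24.8 TPM, lay above it. The log2 fold change of -0.7 ± 0.15 (SE) narrowly missed the threshold (adjusted p = 0.0645, edgeR). It passed without sham mouse A154 (-0.88, adjusted p = 0.0084) or A161 (-0.71, adjusted p = 0.0455), and with DESeq2 (adjusted p = 0.00117). Over the fits that left out 1 sham mouse, the adjusted p reached 0.398 (edgeR). In 4 of 8 alternative settings Nr4a1 stayed uncalled, with adjusted p up to 0.208 (edgeR). Nr4a3 was 6.32, 7.21, 7.31 and 8.98 TPM in sham mice and 4.28 to 7.11 TPM in CHI mice (median 6.27), with a log2 fold change of -0.4 ± 0.14 (SE; p = 0.0109, adjusted p = 0.222). Nr4a2 was 26.9, 32.4, 33.9 and 34.3 TPM in sham mice and 19 to 37.2 TPM in CHI mice (median 26.5), with a log2 fold change of -0.28 ± 0.21 (SE; adjusted p = 0.638). In this comparison 0.608% of genes were called, and 2.83% did not overlap with CHI below sham, none of the 3 among them. Sham mice of this label had the lowest Nr4a1 and Nr4a3 medians of the 4 sham groups at 9 h.

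Fitted over the 46 CHI and 22 sham mice of all 4 strain labels at 9 h, with strain, sex and age as covariates, all 3 genes were called lower. The log2 fold change was -1.07 ± 0.15 (SE) for Nr4a1 (adjusted p = 1.53e-07), -0.82 ± 0.11 for Nr4a3 (adjusted p = 5.69e-08) and -0.45 ± 0.12 for Nr4a2 (adjusted p = 0.0047). Of all genes, 26.5% were called in this fit, 13.8% lower and 12.7% higher (edgeR). Without the C57BL/6J mice, Nr4a1 (-0.86, adjusted p = 0.00168) and Nr4a3 (-0.6, adjusted p = 0.00126) were called and Nr4a2 was not (-0.24, adjusted p = 0.168).

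The estimates of the strain labels spread widely, but no difference between them passed the test. Nr4a1 in mice labelled IL-1R1 eRestore differed from C57BL/6J mice by 1.33 ± 0.39 on the log2 scale (SE; 95% interval 0.55 to 2.11; p = 0.00117, adjusted p = 0.188). For Nr4a3 the same difference was 0.92 ± 0.29 (p = 0.00235, adjusted p = 0.239) and for Nr4a2 0.84 ± 0.33 (p = 0.0125, adjusted p = 0.41). The share of genes called was 0.0107% for IL-1R1 eRestore. For IL-1R1 gKO the differences from C57BL/6J were 0.36 ± 0.38 (Nr4a1), 0.53 ± 0.32 (Nr4a2) and 0.41 ± 0.29 (Nr4a3), with adjusted p from 0.83 to 0.924 and 0% of genes called. No gene passed there with edgeR, 1199 genes had an unadjusted p under 0.05, and DESeq2 called 12. For IL-1R1 nRestore the differences were 0.32 ± 0.46, 0.72 ± 0.38 and 0.93 ± 0.34, with adjusted p from 0.785 to 0.997 and 0.00534% of genes called. All mice of that label at 9 h came from an experiment that held no C57BL/6J mouse, so label and experiment cannot be told apart there. A joint test of any difference among the 4 labels at 9 h gave adjusted p of 0.629, 0.81 and 0.604 for Nr4a1, Nr4a2 and Nr4a3 (0.00534% of genes called). These comparisons share the C57BL/6J mice.

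**Figure D2:**
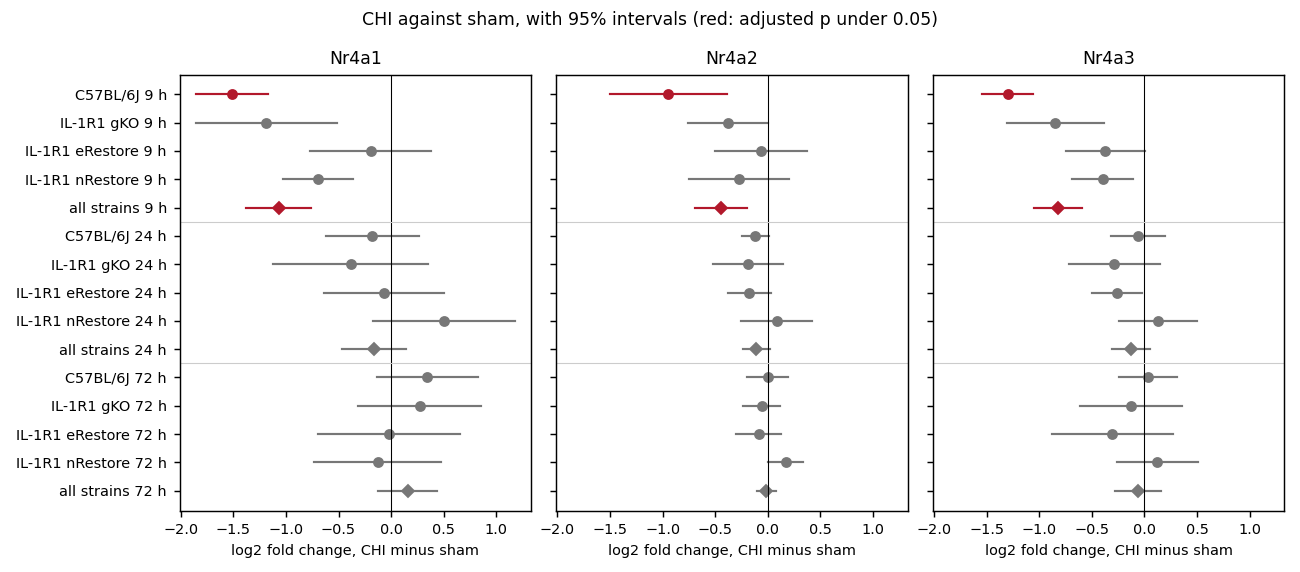
Log2 fold change of CHI minus sham (horizontal axis) for each gene, by strain label and time point (rows; circles, single strain; diamonds, all strains together), with lines for the 95% interval and red for an adjusted p under 0.05. The red marks are the C57BL/6J and all-strain estimates at 9 h, from -1.52 to -0.45, and every estimate at 24 and 72 h is grey.

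The labels assign the 9 h mice to experiments eIL-1-76, eIL-1-80 and TM-2-33, which serve as batches. Within each experiment, the mean log2(TPM + 0.1) of CHI mice was set against that of sham mice in a two-sided exact permutation test, 24 tests in all with unadjusted p. In C57BL/6J mice the difference of Nr4a1 was -1.62 in eIL-1-76 (10 CHI and 4 sham mice, exact p = 0.000999) and -1.28 in eIL-1-80 (5 and 2 mice, exact p = 0.0476). Those of Nr4a3 were -1.36 and -1.2, with the same p, and all 4 p-values are the smallest these group sizes allow. The groups did not overlap in either experiment. That non-overlap and those 4 p-values follow from the separation of all C57BL/6J mice by surgery given above. They are not a separate result. Nr4a2 differed by -0.97 in eIL-1-76 (exact p = 0.046) and -0.66 in eIL-1-80 (exact p = 0.143), with overlap in both.

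In the other strain labels the experiments varied. In mice labelled IL-1R1 gKO, Nr4a3 did not overlap in TM-2-33 (6 CHI mice from 2.7 to 6.41 TPM; sham mice at 7.63 and 7.71 TPM; exact p = 0.0714) or in eIL-1-80 (3 CHI mice from 8.8 to 10.1 TPM; sham mice at 21.9 and 25.9 TPM; exact p = 0.1), and overlapped in eIL-1-76 (exact p = 0.267). The smallest p those 3 sets allow are 0.0357, 0.1 and 0.0667. The share of all genes without overlap was not computed within experiments. Sham levels themselves differed between experiments: the 6 sham mice labelled IL-1R1 gKO or IL-1R1 nRestore in TM-2-33 had 6.32 to 8.98 TPM of Nr4a3, and the 16 sham mice of eIL-1-76 and eIL-1-80 had 11.1 to 25.9 TPM. In mice labelled IL-1R1 eRestore, Nr4a3 was 6 to 10.2 TPM in the 4 CHI mice of eIL-1-80 against 14.2 to 14.6 TPM in 3 sham mice, a difference of -0.89 (exact p = 0.0571), and the difference in eIL-1-76 was -0.18 (8 and 3 mice, exact p = 0.479). Nr4a1 in this label differed by 0.21 in eIL-1-76 (exact p = 0.703) and by -0.54 in eIL-1-80 (exact p = 0.171). All mice labelled IL-1R1 nRestore at 9 h were in TM-2-33, where Nr4a1 differed by -1.02 (exact p = 0.00952).

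**Figure D3:**
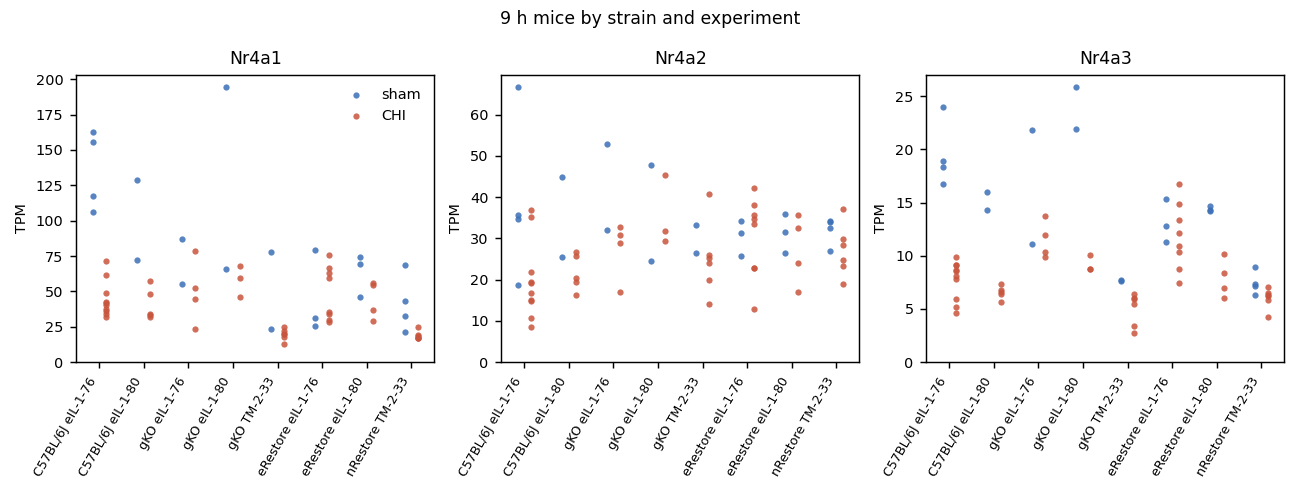
Levels in TPM (vertical axis, from 0) of each gene in the 68 mice at 9 h, by strain label and experiment (horizontal axis) and surgery (blue, sham; red, CHI). For Nr4a3 the CHI mice lie below all sham mice of the same strain and experiment in 5 of 8 sets. Sets are as small as 3 CHI and 2 sham mice, and the share of all genes that did so was not computed per set. The C57BL/6J sets follow from the separation of all mice of that strain. Sham mice of experiment TM-2-33 lie between 6.32 and 8.98 TPM of Nr4a3.

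At 24 and 72 h no Nr4a gene passed the test in any strain label. At 24 h the log2 fold changes in C57BL/6J mice were -0.18 ± 0.21 for Nr4a1 (SE; 95% interval -0.62 to 0.26), -0.12 ± 0.06 for Nr4a2 (-0.25 to 0.01) and -0.07 ± 0.12 for Nr4a3 (-0.32 to 0.19). At 72 h they were 0.35 ± 0.23 (-0.14 to 0.83), -0.0016 ± 0.095 (-0.2 to 0.2) and 0.03 ± 0.13 (-0.25 to 0.3). In the other labels the 18 estimates ranged from -0.38 (Nr4a1, IL-1R1 gKO, 24 h) to 0.5 (Nr4a1, IL-1R1 nRestore, 24 h), with adjusted p of 0.5 or more. Unadjusted p were under 0.05 for 2 of them, Nr4a3 in IL-1R1 eRestore at 24 h (-0.26, p = 0.0322) and Nr4a2 in IL-1R1 nRestore at 72 h (0.17, p = 0.0442). Over all strain labels the estimates were -0.16 ± 0.15, -0.11 ± 0.06 and -0.13 ± 0.09 at 24 h and 0.16 ± 0.14, -0.01 ± 0.05 and -0.06 ± 0.11 at 72 h, for Nr4a1, Nr4a2 and Nr4a3 in turn. The joint test of any difference among the labels gave adjusted p of 0.997 or above for each gene at both time points.

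Few genes of any kind were called at these times. The share called at 24 h was 0.404% in C57BL/6J, 0.0059% in IL-1R1 gKO, 0% in IL-1R1 eRestore, 0% in IL-1R1 nRestore and 1.96% over all strains. At 72 h it was 0% in C57BL/6J, 0% in IL-1R1 gKO, 0.00605% in IL-1R1 eRestore, 0.0121% in IL-1R1 nRestore and 0.717% over all strains. It was 0.00541% and 0.00543% for the joint tests at 24 and 72 h. Where edgeR called 0 genes, the number with an unadjusted p under 0.05 was 1494 (IL-1R1 eRestore, 24 h), 740 (IL-1R1 nRestore, 24 h), 869 (C57BL/6J, 72 h) and 376 (IL-1R1 gKO, 72 h), and DESeq2 called 55, 3, 41 and 0.

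The time points themselves differed, in sham mice as well as in CHI mice. Over all 200 mice, with strain and sex as covariates, sham mice had more of each gene at 9 h than at 24 h: the log2 difference was 0.64 ± 0.19 (SE) for Nr4a1 (adjusted p = 0.00261), 0.44 ± 0.1 for Nr4a2 (adjusted p = 0.000103) and 0.52 ± 0.13 for Nr4a3 (adjusted p = 0.000513). Against 72 h it was 0.41 ± 0.19 for Nr4a1 (adjusted p = 0.0572), 0.45 ± 0.1 for Nr4a2 (adjusted p = 7.24e-05) and 0.46 ± 0.13 for Nr4a3 (adjusted p = 0.00216). Of all genes, 48.5% and 47% were called in these comparisons of sham mice. In the comparison with 24 h, the 3 striatal markers Drd1, Adora2a and Ppp1r1b were called lower at 9 h (median log2 difference -1.14). Of 6 neuronal markers, 4 were called higher (median 0.2). The part of these markers in the Nr4a differences was not tested. In C57BL/6J mice alone the Nr4a1 difference from 72 h was 1.48 (adjusted p = 4.21e-05), and with age added over all mice 0.52 (adjusted p = 0.0374). The sham medians of Nr4a1 at 9, 24 and 72 h were 123, 63.6 and 50.1 TPM in C57BL/6J mice, 57.9, 47.4 and 77.1 TPM in mice labelled IL-1R1 eRestore, and 38.2, 42.4 and 63.2 TPM in mice labelled IL-1R1 nRestore. The last also had their lowest sham median of Nr4a3 at 9 h (7.26 TPM, against 9.14 at 24 h and 9.01 at 72 h), so the order over all mice was not that of every label.

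In CHI mice the order turned for Nr4a1 and Nr4a3. Against 72 h, 9 h CHI mice had less Nr4a1 (-0.69 ± 0.13 SE, adjusted p = 1.23e-06) and less Nr4a3 (-0.31 ± 0.09, adjusted p = 0.00183), and Nr4a2 differed by 0.02 ± 0.07 (adjusted p = 0.788). With age as a further covariate the Nr4a3 difference was -0.09 (adjusted p = 0.545), and in C57BL/6J mice alone that of Nr4a1 was -0.34 (adjusted p = 0.0831). Against 24 h the differences were -0.23 ± 0.13, 0.08 ± 0.07 and -0.18 ± 0.09 for Nr4a1, Nr4a2 and Nr4a3, and none passed the test. Of all genes, 70.5% were called between 9 and 24 h and 70.7% between 9 and 72 h in CHI mice.

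The CHI effect at 9 h differed from that at the later time points for all 3 genes. Against 24 h it was lower by -0.86 ± 0.23 (SE) for Nr4a1 (adjusted p = 0.00448), -0.37 ± 0.12 for Nr4a2 (adjusted p = 0.0332) and -0.7 ± 0.16 for Nr4a3 (adjusted p = 0.000926), with 12.3% of genes called. Against 72 h it was -1.1 ± 0.23 (adjusted p = 0.000102), -0.43 ± 0.12 (adjusted p = 0.0077) and -0.77 ± 0.16 (adjusted p = 0.000137), with 15.5% called. Against 24 h the CHI effect was also called lower for 2 of 3 striatal markers (median -0.76) and 3 of 4 microglial markers (median -0.28). It was called higher for 2 of 3 endothelial markers, and 0 of 6 neuronal markers were called. The part of these markers in the Nr4a differences was not tested.

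In C57BL/6J mice at 9 h, Nr4a1 was lower after CHI in females and in males. Nr4a1 ranged from 33.8 to 71.8 TPM in 7 female CHI mice against 72.4 to 155.7 TPM in 3 female sham mice. In males Nr4a1 ranged from 32.2 to 61.6 TPM in 8 CHI mice against 106.3 to 162.7 TPM in 3 sham mice. The groups did not overlap in either sex. That non-overlap follows from the separation of all C57BL/6J mice by surgery given above and is not a separate result. Over all strain labels the CHI effect in males minus that in females was -0.16 ± 0.31 (SE; 95% interval -0.79 to 0.47) for Nr4a1, -0.13 ± 0.26 (-0.64 to 0.38) for Nr4a2 and -0.19 ± 0.23 (-0.66 to 0.28) for Nr4a3, with adjusted p of 1 for each and 0% of genes called. With edgeR 429 genes had an unadjusted p under 0.05 in this comparison. DESeq2 was not run on it.

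Among mice of the same group, Nr4a1 and Nr4a3 varied together, and Nr4a2 varied more weakly with Nr4a3 and little with Nr4a1. Over the 200 mice, as deviations from the group means of log2 normalized counts, Pearson's r was 0.591 between Nr4a1 and Nr4a3, 0.225 between Nr4a2 and Nr4a3 and 0.046 between Nr4a1 and Nr4a2. Over the 24 group means r was 0.831, 0.585 and 0.372 for the same pairs. The points share libraries and the mice of a group share experiments, so these values are a description.

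The genes whose levels were most like those of Nr4a1 within groups were immediate early genes of active neurons: Arc (r = 0.906), which encodes a synaptic protein, Junb (0.897) and Fos (0.881), which encode AP-1 subunits, Dusp1 (0.877), which encodes a MAP kinase phosphatase, and Trib1 (0.868), which encodes a pseudokinase. Over the group means they were Arc (0.961), Sik1 (0.947), Fos (0.935), Dusp6 (0.921) and Egr1 (0.906). For Nr4a3 they were Fosl2 (0.82), Midn (0.806), Egr1 (0.783), Dusp4 (0.765) and Egr4 (0.758) within groups, and Egr4 (0.932), Fosl2 (0.931), Egr1 (0.916), Egr2 (0.913) and Dusp6 (0.9) over the means.

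Nr4a2 had other companions. Within groups they were Gnb4 (r = 0.728), Smim32 (0.664), Rgs12 (0.66), B3gat2 (0.632) and Cpne4 (0.608), of which Gnb4 and Smim32 are known from the claustrum. Over the group means they were Adrb1 (0.883), Slit2 (0.882), Ulk2 (0.876), Atg4c (0.859) and B4galt3 (0.856). At 9 h the summed level of the claustrum and deep cortex markers Gnb4 and Ntng2 was 24.1 to 51.4 TPM (median 36.8) in C57BL/6J CHI mice and 31.9 to 79 TPM (median 43.4) in sham mice, and neither marker passed the test there. Its part in the Nr4a2 difference was not tested.

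Other nuclear receptor genes went in both directions. Of 46 on a list of the remaining family members, 34 passed the filter on low counts in the fit of all strains at 9 h, where 3 rose, 7 fell and 24 did not pass the test, with a median log2 fold change of -0.03 beside -0.01 over all genes. This count is read against the 26.5% of all genes called in the same fit, 13.8% lower and 12.7% higher, as are the list counts that follow for that fit. The 4 with the smallest p were Nr2f1, a regulator of cortical area identity (-0.24 ± 0.03 SE, adjusted p = 2.52e-07), Nr2e1, a receptor of neural stem cells (-0.37 ± 0.06, adjusted p = 9.92e-07), Rxra, a heterodimer partner of Nr4a1 and Nr4a2 (0.15 ± 0.03, adjusted p = 9.99e-05), and Rxrg, a partner of the same family that is found in the striatum (-0.98 ± 0.22, adjusted p = 0.000568). Rxrg ranged from 0.507 to 8.54 TPM in CHI mice and from 0.809 to 17 TPM in sham mice, with overlap. At 24 h over all strains 1 of 34 fell, beside 1.96% of all genes called, and at 72 h 0 of 34 passed, beside 0.717%.

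Genes of the pathways that switch Nr4a genes on went in both directions, as did all genes called in that fit (13.8% lower and 12.7% higher). Of 24 genes for CREB, MEF2, SRF, their coactivators and kinases, all tested at 9 h over all strains, 4 rose and 4 fell, with a median of 0 on the log2 scale, beside 26.5% of all genes called. Sik1, a kinase that CREB itself induces and that restrains CREB coactivators, fell by 0.63 ± 0.1 on the log2 scale (adjusted p = 1.82e-06). The kinase gene Rps6ka2 rose by 0.31 ± 0.05 (adjusted p = 5.86e-07), and the transcription factor genes Elk1 by 0.25 ± 0.05 (adjusted p = 6.14e-05) and Mef2d by 0.21 ± 0.04 (adjusted p = 3.49e-05). Creb1 itself, named after its values were seen, had a log2 fold change of 0.05 ± 0.04 (adjusted p = 0.392).

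Of 12 genes for partners and coregulators of NR4A proteins, 2 rose, 2 fell and 8 did not pass at 9 h over all strains, where 26.5% of all genes were called. Beside Rxra and Rxrg these were Trim28, a corepressor (0.125 ± 0.029 SE, adjusted p = 0.000568), and Ncoa3, a coactivator (-0.13 ± 0.05, adjusted p = 0.0499). Of 14 genes that Nr4a2 controls or that mark dopamine neurons, 8 were tested, of which 1 rose, 2 fell and 5 did not pass, beside the same 26.5%. Bdnf, which encodes a neurotrophin, fell by 0.41 ± 0.07 (adjusted p = 5.77e-06), Drd2, a dopamine receptor gene, fell by 0.96 ± 0.29 (adjusted p = 0.00926) with wide and overlapping ranges of 0.28 to 17.4 TPM after CHI and 0.46 to 37.2 TPM after sham, and Ddc, which makes dopamine from its precursor, rose by 0.5 ± 0.11 (adjusted p = 0.000262). The 3 striatal markers named above had a median log2 fold change of -0.57 in this fit, with 2 estimates below 0 and 1 called. Their part in the Drd2 difference was not tested. Th, the rate-limiting enzyme of dopamine synthesis and also named after its values were seen, had a log2 fold change of 0.11 ± 0.24 (adjusted p = 0.774).

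Other activity-regulated transcription factor genes fell with the Nr4a genes at 9 h. Of 17 on the list, 14 fell, 1 rose and 2 did not pass, over all strains and likewise in C57BL/6J mice alone, with median log2 fold changes of -0.49 in both, beside 13.8% and 7% of all genes called lower. The list was chosen with earlier results of these data known. It holds Fos, Junb, Fosl2, Egr1, Egr2 and Egr4, named above as most like Nr4a1 or Nr4a3. Its counts are a description and not separate support for the fall of the Nr4a genes. The 4 with the smallest p were Egr2 (-1.81 ± 0.22 SE, adjusted p = 4.93e-09), Fosl2 (-0.63 ± 0.09, adjusted p = 6.83e-08), Fos (-1.22 ± 0.18, adjusted p = 2.83e-07) and Egr1 (-0.9 ± 0.14, adjusted p = 5.84e-07). Fos ranged from 4.91 to 48.9 TPM in the 46 CHI mice (median 19.3) and from 8.95 to 102 TPM in the 22 sham mice (median 40.5). The gene that rose was Maff (0.9 ± 0.15, adjusted p = 2.17e-06), which encodes a small MAF protein and was named after its values were seen. In the other 3 labels fitted alone, 0 of 17 passed in IL-1R1 gKO (median -0.44, with 0.199% of all genes called), and 1 fell each in IL-1R1 eRestore (median -0.16, 7.34%) and IL-1R1 nRestore (median -0.19, 0.608%). Over all strains 0 of 17 passed at 24 h (median -0.08, 1.96%), and 1 rose at 72 h (median 0.07, 0.717%).

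**Figure D4:**
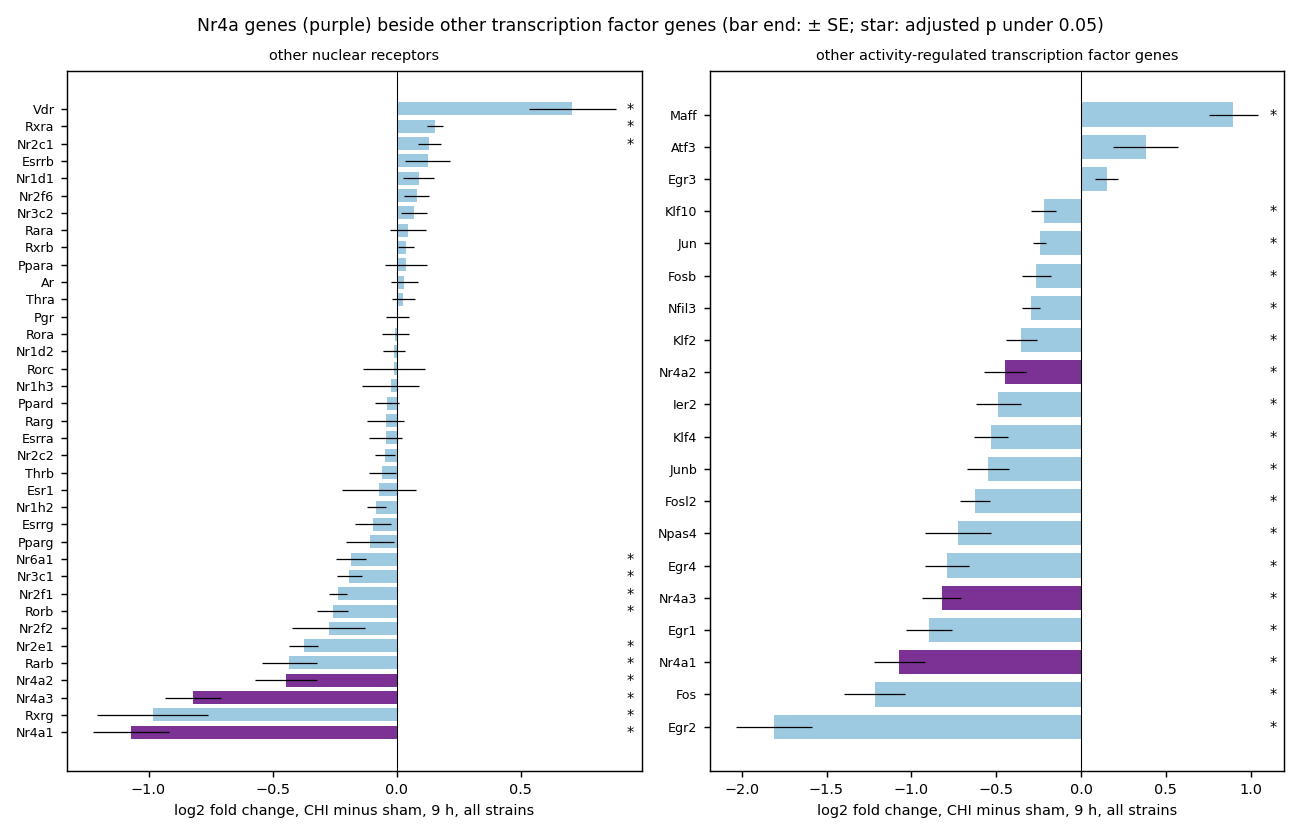
Log2 fold change of CHI minus sham at 9 h over all strains (horizontal axis, bars from 0, lines ± SE) for Nr4a1, Nr4a2 and Nr4a3 (purple) beside the tested genes of 2 lists (light blue; left, other nuclear receptors; right, other activity-regulated transcription factor genes), with stars for an adjusted p under 0.05. On the left the Nr4a genes lie near the lower end with Rxrg at -0.98 and most bars are close to 0. On the right Nr4a1 (-1.07) lies between Fos (-1.22) and Egr1 (-0.9), with Egr2 lower (-1.81). Nr4a3 (-0.82) fell less than Egr1, and Nr4a2 (-0.45) fell less than the median of that list (-0.49).

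Markers of other cell types were set beside the 9 h result. Their counts over all strains are read against the 26.5% of all genes called in that fit, 13.8% lower and 12.7% higher. Those in C57BL/6J mice are read against 14.1% of all genes called, 7% lower. Of 6 neuronal markers, 1 rose and none fell over all strains, and their summed level was 4680 to 8090 TPM in CHI mice (median 6510) and 5330 to 7410 TPM in sham mice (median 6120). None of the 6 passed the test in C57BL/6J mice. All 4 microglial markers (Cx3cr1, P2ry12, Tmem119 and Csf1r) had negative estimates and 3 fell. Their sums in C57BL/6J mice had a median of 123 TPM after CHI (lowest mouse 72.4) and ranged from 123 to 264 TPM after sham, with overlap, and 2 of the 4 fell. Of 3 endothelial markers, 2 rose and 1 fell. Of 3 striatal markers, 1 fell, with sums of 116 to 674 TPM in CHI mice and 85.6 to 576 TPM in sham mice. All 3 choroid plexus markers fell, with sums from 4.57 to 2470 TPM in CHI mice and from 8.56 to 6110 TPM in sham mice. The choroid plexus estimates were above 0 in mice labelled IL-1R1 nRestore. Sums of the 5 monocyte and neutrophil markers had a median of 0.613 TPM in CHI mice (0 to 64.6) and 0.269 TPM in sham mice (0 to 2.4), and none passed the filter on low counts. The red blood cell genes Hbb-bs and Hba-a1 had a summed median of 100 TPM in CHI mice (0.439 to 773) and 13.8 TPM in sham mice (0.68 to 413), and neither passed the test. Astrocyte markers (1 of 4 higher, 1 lower) and oligodendrocyte markers (0 of 4 called) had sums of 470 to 680 and 2420 to 6440 TPM in CHI mice and 480 to 696 and 2600 to 6480 TPM in sham mice. The part of these markers in the Nr4a differences was not tested.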

How the data were processed

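Bulk RNA was sequenced from 1 snap-frozen hemisphere of each of 200 PBS-perfused mice, 1 library per mouse, each with its own animal number in the labels. Per the study's methods, poly(A) libraries were run through nf-core/rnaseq, with STAR alignment to GRCm39 and quantification by Salmon. The authors deposited estimated counts per gene, of which 89.2% were whole numbers, and TPM values scaled by transcript length. The annotation release and the strand setting are not given in the sources used here. Depth was 14857985 to 57355676 counts per mouse.

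Estimated counts were rounded and tested with edgeR 4.0.16 (R 4.3.3; TMM scaling, robust quasi-likelihood test) in each strain and time point, with sex and age as covariates, keeping genes that reached 10 counts in a number of mice equal to the smaller group. Benjamini–Hochberg adjustment ran over all tested genes, with a threshold of 0.05. Fits across time points used strain and sex. DESeq2 1.42.0 was an alternative, as were other filters, covariates and mouse sets. Within experiments, log2(TPM + 0.1) was compared by two-sided exact permutation tests. Pseudo-duplicates were looked for in 879 pairs of mice of 1 group, and the lowest chi-square per degree of freedom was 4.44, so no library was counted as a copy. On simulated counts with 200 genes changed by 1 on the log2 scale, edgeR recovered 97% in C57BL/6J at 9 h (16967 genes) and 92.5% in IL-1R1 gKO at 9 h (16604 genes). The changed genes were drawn from those above a minimum mean count, and no difference between experiments was simulated. The members and gene lists were chosen with earlier results of these data known. Named genes were the 3 members, up to 4 called genes with the smallest p per list at 9 h over all strains, and the 5 genes most correlated with each member. The claustrum marker Ctgf had no unique row and was not used. Promoters came from RefSeq (GRCm38.p6).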

Additional observations from a re-analysis of the deposited data

Results flagged for a closer look

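In 4 of 48 sets of 1 gene in 1 group of 4 to 10 mice, the highest or lowest mouse stood far from the rest by Dixon's criterion, which chance alone meets in about 1 in 20 sets. In mice labelled IL-1R1 gKO at 9 h, sham mouse A090 had 194.2 TPM of Nr4a1, and the next highest of the 6 sham mice had 87.09 TPM. The same mouse had the highest Nr4a3 level of its group (25.89 TPM) and the lowest Nr4a2 level (24.64 TPM). Of the IL-1R1 nRestore mice at 9 h, 1 CHI mouse had 24.8 TPM of Nr4a1 and the next of 6 had 19.27 TPM. Among IL-1R1 eRestore mice at 24 h, 1 CHI mouse had 83.43 TPM of Nr4a1 and the next of 9 had 57.88 TPM. At 24 h 1 IL-1R1 gKO sham mouse had 11.87 TPM of Nr4a2, the next lowest of 6 had 25.61 TPM, and without it the log2 fold change was -0.3.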

How the results depend on the processing

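Over 84 results, 447 values were recomputed under another tool, filter, set of covariates or set of mice, and 410 kept their direction and their side of the threshold. Of the remaining 37, 4 lost a call, 15 passed a threshold they had missed and 18 changed sign, and the cause was not tested. Calls were lost for Nr4a2 in C57BL/6J at 9 h in the largest experiment alone (-1.0, adjusted p = 0.0819), for Nr4a2 over all strains at 9 h without the C57BL/6J mice (-0.24), for Nr4a1 in CHI mice at 9 against 72 h in C57BL/6J alone (-0.34) and for Nr4a3 in the same comparison with age added (-0.087). The permutation p below are for single genes and unadjusted, so passing 0.05 there is a lower bar. The threshold was passed in IL-1R1 gKO at 9 h with DESeq2 (Nr4a1 -1.19, Nr4a3 -0.85), DESeq2 with gene-length offsets (-1.17 and -0.83), 1 fit over the 3 time points (-1.18 and -0.96) and permutation of log2(TPM + 0.1) (-1.1 and -0.96). For Nr4a1 in IL-1R1 nRestore at 9 h it was passed with DESeq2 (-0.7005), offsets (-0.73), no filter beyond 1 count (-0.69) and permutation (-1.02), for Nr4a3 in IL-1R1 eRestore at 9 h with permutation (-0.44), and for Nr4a1 in sham mice at 9 against 72 h with age added (0.52) or C57BL/6J alone (1.48). Signs changed in the largest experiment alone in C57BL/6J for Nr4a1 at 24 h (0.17), Nr4a3 at 24 h (0.0087) and Nr4a3 at 72 h (-0.083), for Nr4a2 in IL-1R1 eRestore at 9 h (0.025) and for Nr4a3 in IL-1R1 nRestore at 24 h (-0.13) and 72 h (-0.073). They changed without covariates for Nr4a1 in IL-1R1 eRestore at 72 h (0.0038) and for Nr4a2 (-0.021) and Nr4a3 (-0.12) in IL-1R1 nRestore at 24 h, where those of Nr4a3 also changed with experiment in place of age (-0.063) and permutation (-0.076) and that of Nr4a2 in 1 fit (-0.0089). They changed by permutation for Nr4a3 in IL-1R1 gKO (0.0198) and Nr4a1 in IL-1R1 eRestore (0.081) at 72 h, and without a filter for Nr4a2 in C57BL/6J at 72 h (0.0021). In CHI mice they changed in C57BL/6J alone for Nr4a2 against 24 h (-0.27) and 72 h (-0.197) and with age added for Nr4a3 against 24 h (0.002).

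Leaving out 1 sham mouse at a time gave 201 values, of which 180 kept call and sign. The ranges of the others at 9 h were -1.09 to -0.73 (Nr4a2, C57BL/6J), -0.88 to -0.61 (Nr4a1, IL-1R1 nRestore) and -0.32 to 0.0495 (Nr4a1, IL-1R1 eRestore). At 24 h they were -0.296 to 0.039 (Nr4a1, C57BL/6J), -0.17 to 0.14 (Nr4a1, IL-1R1 eRestore) and -0.013 to 0.11 (Nr4a2, IL-1R1 nRestore). At 72 h they were -0.22 to 0.13 (Nr4a1, IL-1R1 eRestore), -0.31 to 0.065 (Nr4a1, IL-1R1 nRestore), -0.049 to 0.058 (Nr4a2, C57BL/6J), -0.13 to 0.052 (Nr4a2, IL-1R1 gKO), -0.13 to 0.11 (Nr4a3, C57BL/6J), -0.26 to 0.11 (Nr4a3, IL-1R1 gKO) and -0.042 to 0.24 (Nr4a3, IL-1R1 nRestore). CHI mice were not left out. The number of genes called at 9 h ranged over the settings from 1226 to 3157 in C57BL/6J (2385 as reported), 0 to 392 in IL-1R1 gKO (33), 137 to 1991 in IL-1R1 eRestore (1222), 97 to 806 in IL-1R1 nRestore (102) and 2334 to 5051 over all strains (4406). In the same order it ranged at 24 h from 18 to 333 (67), 0 with experiment in place of age to 84 with DESeq2 and gene-length offsets and more with DESeq2 size factors (1), 0 to 93 (0), 0 to 5 (0) and 42 to 473 (327), and at 72 h from 0 to 41 (0), 0 to 3 (0), 0 to 16 (1), 0 to 11 (2) and, over all strains, from 54 without the C57BL/6J mice upward, where 0.717% of genes were called as reported and no other setting moved the count as far. DESeq2 called 16 and 14 genes for the differences of IL-1R1 eRestore and IL-1R1 nRestore from C57BL/6J. In C57BL/6J alone the counts between time points fell to 4871 and 5351 in sham mice and 876 and 1219 for the CHI effect. Of the 5 genes most like Nr4a2 over the group means, 2 were among the 5 on log2(TPM + 0.1). No paired analysis was possible because the labels give no replicate numbers shared between groups.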
